A study of Saccharomyces cerevisiae with 12 samples.

Results

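The 8 genes described here encode the V1 sector of the vacuolar ATPase of the budding yeast Saccharomyces cerevisiae: VMA1, VMA2, VMA4, VMA5, VMA7, VMA8, VMA10 and VMA13. They were taken by symbol from a RefSeq gene table of assembly R64 that holds 6431 nuclear genes, 6002 of them protein-coding, and all 8 were found. The measurement was chromatin immunoprecipitation with sequencing (ChIP-seq) of RNA polymerase II (Pol II), precipitated through a 3XFLAG tag on its subunit Rpb3. The wild-type strain was MATa with his3Δ1, leu2Δ0, met15Δ0 and ura3Δ0, and the dbp2Δ strain carried the same alleles with DBP2, the gene of a DEAD-box RNA helicase, replaced by KanMx6. Both strains carried the tag and were grown in rich medium with 2% glucose at 30 °C, and the cells were fixed with 1% formaldehyde for 15 min. Each strain gave 3 immunoprecipitates and 3 inputs, 12 libraries in all.

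The vacuolar ATPase is a rotary proton pump that acidifies the vacuole and other organelles. Its peripheral V1 sector hydrolyses ATP and its membrane V0 sector carries the protons. In V1, subunits A (VMA1) and B (VMA2) alternate in a ring that holds the catalytic sites, and subunits D (VMA8) and F (VMA7) form the central rotor. Subunits E (VMA4) and G (VMA10) pair in the peripheral stalks, subunit C (VMA5) joins the stalks to V0, and subunit H (VMA13) completes that junction and restrains ATP hydrolysis when V1 is free. In yeast the sectors come apart when glucose is withdrawn and rejoin when it returns.

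The deposited data are 1 peak list per strain, called by the authors after they had merged the 3 immunoprecipitates and, as background, the 3 inputs. No spread between replicates could be computed, so no difference between the strains was tested and every value below describes a pair of lists. The wild-type list held 1642 peaks from 3648848 fragments and the dbp2Δ list 1628 peaks from 4030024 fragments, with recorded fragment sizes of 260 and 290 bp. A peak here is a region of Pol II signal above the local background, its summit is the highest point, and its fold enrichment is the authors' ratio of signal to background at the summit. Ranks by fold enrichment hold within a list. Wild-type peaks covered 100% of DBP2 itself and dbp2Δ peaks 0%.

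A gene was counted as having a peak where peaks lay over 50% or more of its length. By this rule the wild-type list gave a peak for 6 of the 8 V1 genes and the dbp2Δ list also for 6, whereas the shares of all protein-coding genes were 19.9% and 20.6%. Of the protein-coding genes within the length range of the members, 357 to 3216 bp, 19.3% and 19.8% had one. VMA1, VMA2, VMA4, VMA10 and VMA13 had a peak in both lists, which 16.9% of protein-coding genes did. VMA7 had one in the wild type only and VMA5 in dbp2Δ only, classes that held 3% and 3.7% of protein-coding genes. VMA8 stayed just under the rule in both lists. Some overlap with a wild-type peak was found for 8 of 8 V1 genes and with a dbp2Δ peak for 7, the exception being VMA7, against 38.8% and 42.4% of protein-coding genes.

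**Figure D1:**
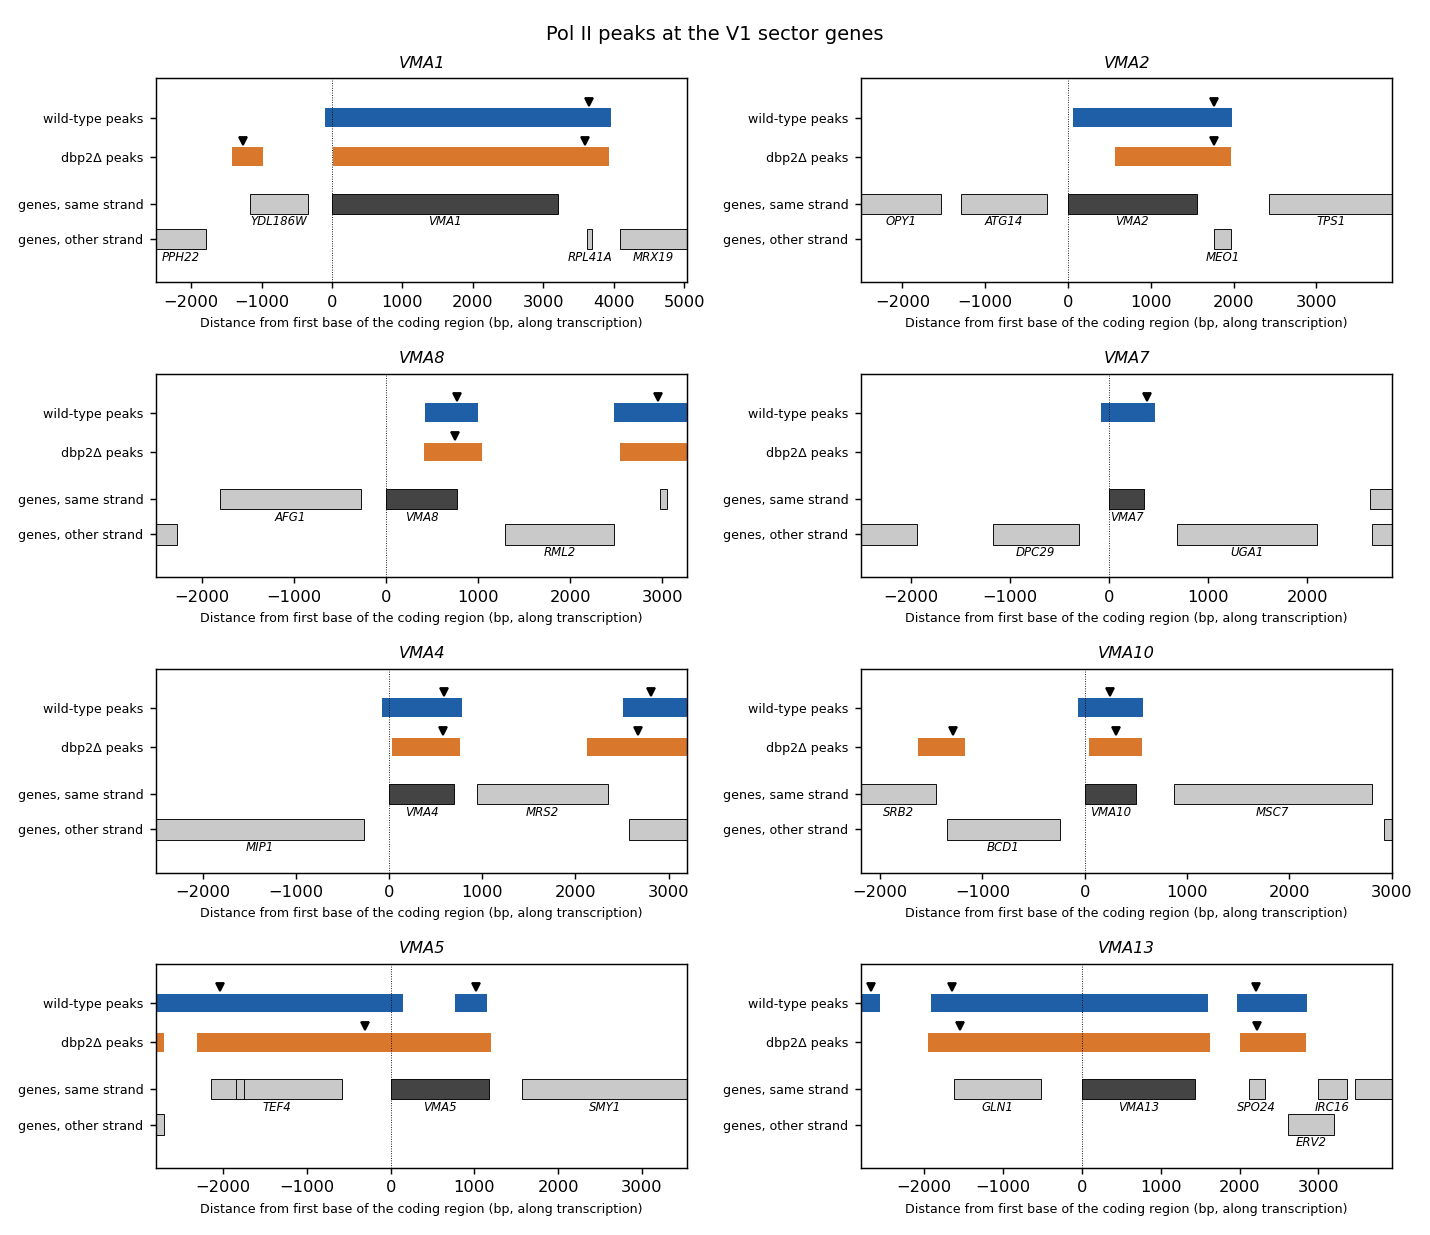
Peaks of the wild-type (blue) and dbp2Δ (orange) lists at each V1 gene, in bp from the first base of the coding region along the direction of transcription. Black triangles are summits, dark boxes the V1 gene and grey boxes other annotated genes, and peaks are cut at the panel edges. VMA7 has no dbp2Δ peak, and the peaks over VMA1, VMA2, VMA5 and VMA13 reach a neighbouring gene.

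Much of this signal came in peaks that also lay over a neighbour. The summit was inside the gene for only 2 of the 6 members with a wild-type peak and 2 of the 6 with a dbp2Δ peak, VMA4 and VMA10 in both lists. Of all protein-coding genes with a peak, 54.6% had a summit inside the gene for the wild-type list and 41.1% for the dbp2Δ list, which is 10.9% and 8.48% of all protein-coding genes. The fold enrichments of VMA1, VMA2, VMA5, VMA7 and VMA13 therefore need not describe these genes. No other annotated gene lay under the peaks of VMA4, VMA7, VMA8 and VMA10.

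The genes of the catalytic ring come first. VMA1 (YDL185W, chromosome IV, 126787 to 130002, R64) encodes catalytic subunit A, and its coding region also holds an intein that the protein splices out of itself. In the wild type a single peak from 126692 to 130746 covered 100% of the gene, and in dbp2Δ a peak from 126793 to 130724 covered 99.8%. These were the highest peaks over any V1 gene, with fold enrichments of 11.3 (rank 40 of 1642) and 9.75 (rank 58 of 1628). Both summits, however, lay beyond VMA1, 435 bp past its last base in the wild type and 379 bp past it in dbp2Δ. The wild-type summit was inside RPL41A, a ribosomal protein gene on the other strand whose 3′ end faces that of VMA1, and the dbp2Δ summit was 26 bp past the last base of RPL41A. The peak lists do not say how high the signal was within VMA1.

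VMA2 (YBR127C, chromosome II, 491269 to 492822) encodes subunit B of the ring. The wild-type peak, 490835 to 492767, covered 96.5% of the gene, and the dbp2Δ peak, 490847 to 492259, covered 63.8%. The difference lay at the 5′ end of VMA2: the peak began 55 bp into the gene in the wild type and 563 bp into it in dbp2Δ. At the other end the peaks stopped within 12 bp of each other, just beyond the small convergent gene MEO1, which both covered. The summits were 211 and 215 bp past the last base of VMA2, at the end of MEO1, with fold enrichments of 2.3 (rank 613) and 2.54 (rank 528). VMA2 thus had a peak of middle rank in either list, with the highest signal downstream of the gene.

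VMA8 and VMA7 encode the rotor subunits. At VMA8 (YEL051W, chromosome V, 58378 to 59148), subunit D, a peak covered 45.5% of the gene in the wild type (58798 to 59374) and 47.2% in dbp2Δ (58785 to 59414). Both peaks lay over the 3′ part only, starting 420 and 407 bp into the gene and ending 226 and 266 bp past it. Their summits were 6 and 20 bp before the last base. The fold enrichment was 3.03 (rank 385) in the wild type and 2.07 (rank 792) in dbp2Δ. The first 10% of VMA8 was at 0% coverage in both lists.

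VMA7 (YGR020C, chromosome VII, 526973 to 527329), subunit F and the shortest member, was the V1 gene without any dbp2Δ peak. In the wild type a peak of 545 bp (526861 to 527405) covered all of it, with the summit 28 bp past the last base. It was a low peak, with a fold enrichment of 1.5 (rank 1438) and a −log10 q-value of 4.62, where the list's median was 14.6. In dbp2Δ the nearest peaks were 5658 and 6234 bp away on either side. Of the 329 wild-type peaks in the lowest 20% by fold enrichment, to which the VMA7 peak belongs, 41.3% overlapped no dbp2Δ peak. Of the 329 in the highest 20%, 0.608% overlapped none. A low wild-type peak without a counterpart was therefore common in these lists, and a VMA7 signal under the calling threshold in dbp2Δ would not appear.

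VMA4 and VMA10 encode the peripheral stalk subunits, and they were the clearest cases of a peak belonging to a single V1 gene. At VMA4 (YOR332W, chromosome XV, 943656 to 944357), subunit E, the wild-type peak (943576 to 944439) covered 100% and the dbp2Δ peak (943688 to 944421) 95.4%. The summits lay at 83.9% and 81.9% of the gene from its 5′ end. The fold enrichment was 2.00 (rank 810) and 1.64 (rank 1207). The dbp2Δ peak was 734 bp long against 864 bp in the wild type, and it began inside the gene instead of before it.

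At VMA10 (YHR039C-A, chromosome VIII, 187173 to 187679), subunit G, the wild-type peak (187107 to 187746) covered 100% of the gene and the dbp2Δ peak (187116 to 187641) 92.5%. VMA10 is known to hold an intron, which the annotated span includes. Its summit lay close to the middle of the gene, at 49.4% in the wild type and 61.3% in dbp2Δ. Its fold enrichment was 3.03 (rank 386) in the wild type and 1.74 (rank 1098) in dbp2Δ. VMA8, VMA4 and VMA10, whose summits lay inside the gene, each ranked lower within the dbp2Δ list than within the wild-type list. VMA8 moved from the top 23.4% to the top 48.6%, VMA4 from 49.3% to 74.1% and VMA10 from 23.5% to 67.4%. Peaks with the summit outside the gene also stood lower in dbp2Δ at VMA1 (2.44% and 3.56%) and VMA13 (19.5% and 34.5%). The peak shared by TEF4 and VMA5 did so too (8.4% and 11.4%). VMA2 went the other way, at 37.3% and 32.4%. The share of all peaks that ranked lower in dbp2Δ was not computed, so how usual such a change is remains unknown. The lists were scaled separately and these ranks carry no error, so no direction of Pol II level is drawn from them.

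**Figure D2:**
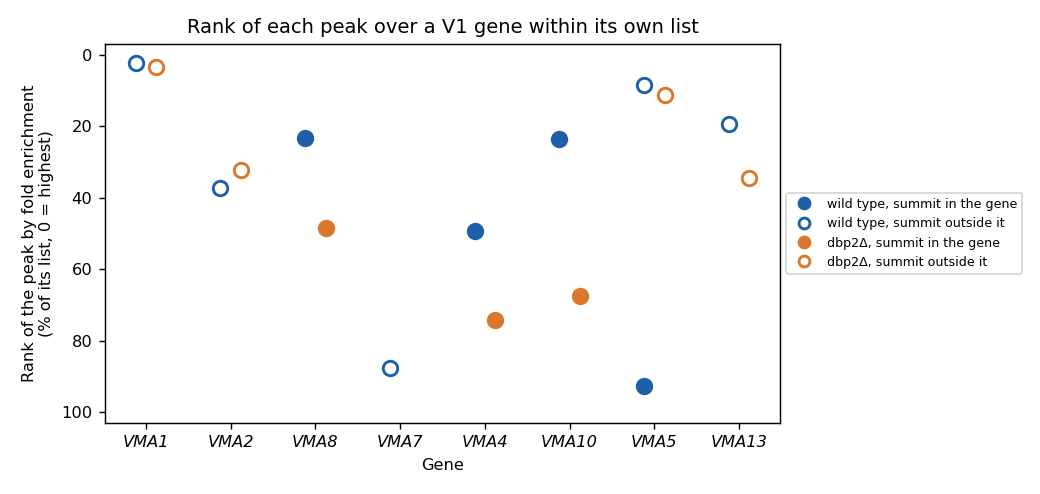
Rank of every peak that overlaps a V1 gene, as a percent of its own list by fold enrichment (0 is the highest), for the wild type (blue) and dbp2Δ (orange). Filled points have the summit inside the gene and open points outside it. The filled points of VMA8, VMA4 and VMA10 sit at 23.4%, 49.3% and 23.5% in the wild type and at 48.6%, 74.1% and 67.4% in dbp2Δ.

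VMA5 and VMA13 encode subunits C and H, and both lie downstream of a gene on the same strand with which they shared a peak. VMA5 (YKL080W, chromosome XI, 285030 to 286208) follows TEF4, which encodes a subunit of a translation elongation factor complex and hosts the snoRNA gene SNR38. In the wild type the TEF4 peak (280672 to 285182), which also covered RRP14 and part of HOT13, ended 153 bp into VMA5. After a stretch of 613 bp without a peak, a separate peak of 387 bp (285796 to 286182) lay over the 3′ part of VMA5, with a fold enrichment of 1.44 (rank 1524). Together they covered 45.8% of VMA5. In dbp2Δ a single peak from 282714 to 286230 ran over TEF4 and the whole of VMA5, 100% of its length, ending 22 bp past it.

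The summits of the peaks shared with TEF4 also differed. In the wild type the summit was inside TEF4, 102 bp from its first base (fold enrichment 7.15, rank 138), and in dbp2Δ it was 268 bp past the last base of TEF4, between TEF4 and VMA5 (5.74, rank 186). Of 2827 pairs of neighbouring protein-coding genes on the same strand, 2.12% were joined by a peak over at least 50% of both genes in dbp2Δ only, as TEF4 and VMA5 were, and 1.13% in the wild type only. The call of VMA5 in dbp2Δ only thus rests on 45.8% of the gene being covered in the wild type, under the 50% required, and on a peak whose summit is outside the gene.

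VMA13 (YPR036W, chromosome XVI, 643836 to 645272) follows GLN1, which encodes glutamine synthetase. A single peak lay over both genes in both lists, from 641925 to 645433 in the wild type and from 641881 to 645464 in dbp2Δ, and covered 100% of VMA13. Of the same pairs, 3.01% were joined in both lists. The summit was at the 5′ end of GLN1, 24 bp before its first base in the wild type and 81 bp after it in dbp2Δ. The fold enrichments, 3.44 (rank 321) and 2.47 (rank 561), are therefore those of the start of GLN1. Of the 9 same-strand pairs that include a V1 gene, the other 7 were not joined in either list.

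**Figure D3:**
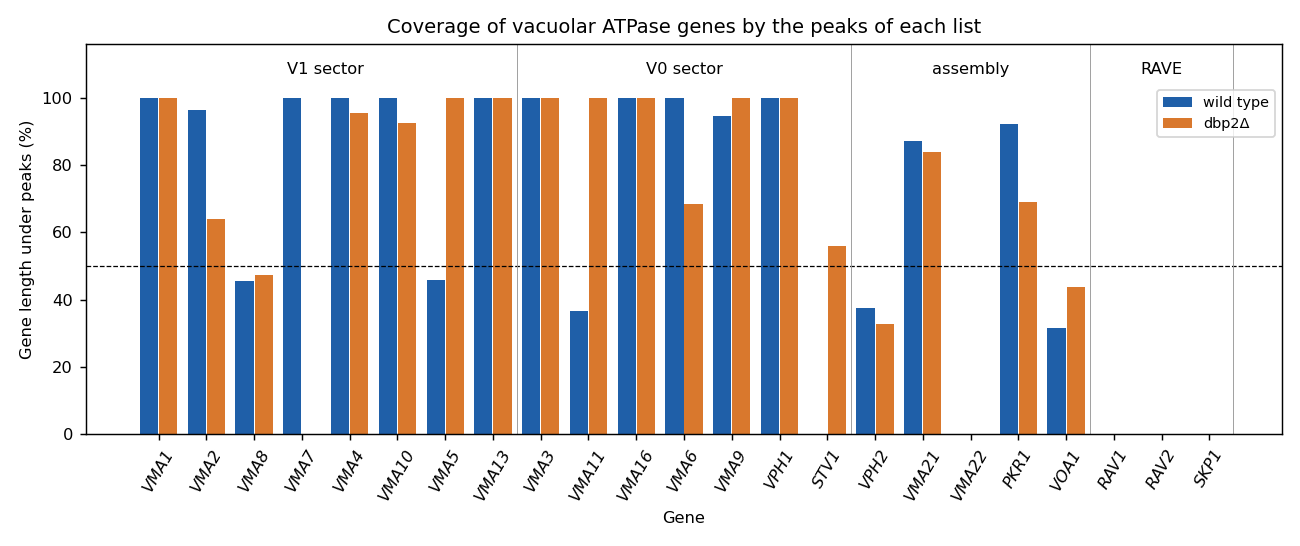
Percent of each gene's annotated length under peaks of the wild-type (blue) and dbp2Δ (orange) lists, for V1, V0, assembly factor and RAVE genes; the dashed line marks the 50% rule. VMA7 goes from 100% to 0% and VMA5 from 45.8% to 100%, and the RAVE genes and VMA22 are at 0% in both lists.

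At VMA1, VMA2, VMA4 and VMA10 the dbp2Δ peak began further downstream than the wild-type peak. The first base of the coding region lay under a wild-type peak at 6 of the 8 genes and under a dbp2Δ peak at 2, VMA5 and VMA13, whose peaks ran in from the gene upstream. Over all protein-coding genes these shares were 25% and 21.3%. In VMA1, VMA4, VMA7 and VMA10 the first base was under a wild-type peak only, which held for 6.65% of protein-coding genes. VMA7 had no dbp2Δ peak at all, so its difference was not limited to the 5′ end. The dbp2Δ peaks of VMA1, VMA4 and VMA10 began 6, 32 and 38 bp into the gene. When a peak within 50 bp of the first base was enough, the counts were 6 and 5 of 8, against 26.5% and 23.2% of protein-coding genes, so the count in dbp2Δ depends on these short distances. The last base lay under a peak in 7 of 8 genes in each list, against 32% and 37% of protein-coding genes.

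The displacement of the edge does not depend on where the gene begins. It was measured on genes with 1 overlapping peak in each list whose 5′ edge stopped before the next annotated gene, as 5 V1 genes had. The 5′ edge was further inward in dbp2Δ by 101 bp at VMA1, 508 bp at VMA2, 112 bp at VMA4 and 105 bp at VMA10. At VMA8 it was 13 bp further outward. Among the 1138 protein-coding genes measured in the same way the edge was inward in 49.8%, with a median difference of 0.0 bp and quartiles of -50.0 and 81.0 bp. An inward displacement of at least 100 bp, seen in 4 of the 5 V1 genes, was found in 15% of those genes. This cutoff was set after the values were seen, and those of VMA1, VMA4 and VMA10 lie just above it. The contrast with 15% is therefore a description and not a test. The wild-type and dbp2Δ libraries differed in recorded fragment size and depth, and the part of these in the edges was not tested.

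**Figure D4:**
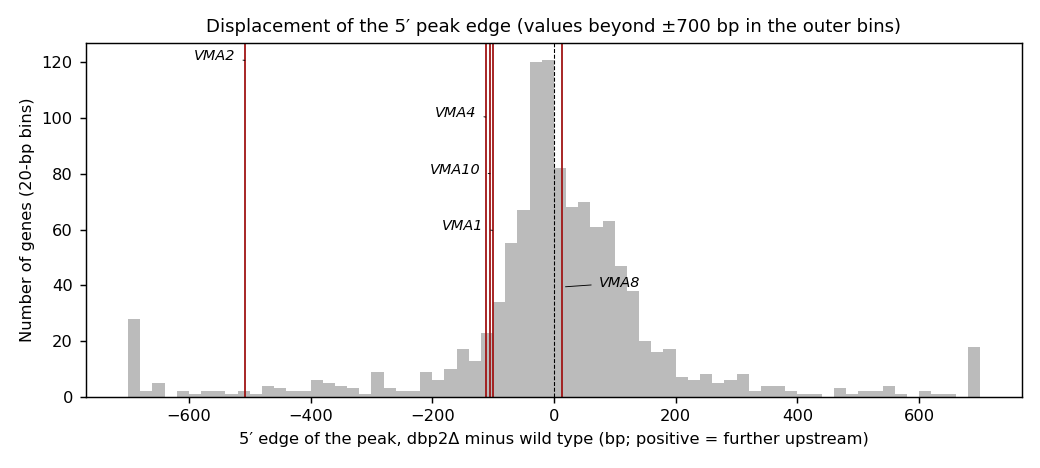
Difference in the position of the 5′ peak edge, dbp2Δ minus wild type, for 1138 protein-coding genes (grey, number of genes per bin), with the V1 genes as red lines; positive values lie further upstream. VMA1, VMA4 and VMA10 lie between -112 and -101 bp, VMA2 at -508 bp and VMA8 at 13 bp.

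The 3′ edge showed no such common displacement. It could be measured at 4 V1 genes, where it was inward in dbp2Δ by 18 bp at VMA4 and 9 bp at VMA10, and outward by 40 bp at VMA8 and 31 bp at VMA13. Over the 373 genes measured alike it was inward in 29%, with a median of 40.0 bp outward. Along the coding region, the mean share of the first 10% of the V1 genes under peaks was 83.1% in the wild type and 47.3% in dbp2Δ, and that of the last 10% was 97.2% and 87.5%. Over all protein-coding genes the corresponding means were 24% and 21.0% for the first 10%, and 30.0% and 34.7% for the last. By gene, the first 10% went from 64.7% to 0% in VMA2, from 100% to 54.9% in VMA4 and from 100% to 25.5% in VMA10. In VMA1 it was 98.1% covered in dbp2Δ. In VMA7 the first 10% and the last 10% both went from 100% to 0%, because no dbp2Δ peak was called there. Both dbp2Δ means of the V1 genes include VMA7, so they mix a missing peak with displaced edges.

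**Figure D5:**
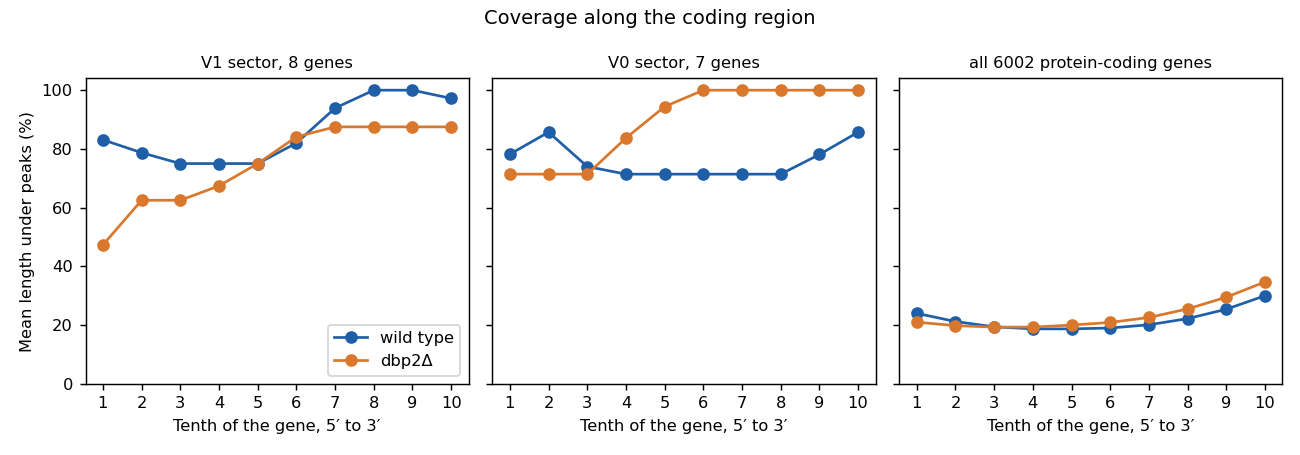
Mean percent of each successive 10% of the coding region under wild-type (blue) and dbp2Δ (orange) peaks, from 5′ to 3′, for the V1 genes, the V0 genes and all protein-coding genes. In the V1 genes the first point is 83.1% in the wild type and 47.3% in dbp2Δ, and over all protein-coding genes 24% and 21.0%. The V1 means include VMA7, which has no dbp2Δ peak.

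Summits of the peaks that lay over no gene other than a V1 gene were mostly in the 3′ part. In the wild type there were 5 such peaks, over VMA4, VMA5, VMA7, VMA8 and VMA10, and 4 of the 5 had their summit past the midpoint of the gene, VMA10 at 49.4% being the exception. In dbp2Δ there were 3, over VMA4, VMA8 and VMA10, and all 3 had it past the midpoint. The share among all peaks over a single protein-coding gene was 44.6% of 722 for the wild-type list and 58.8% of 554 for the dbp2Δ list.

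The other genes of the pump were counted by the same rule. Wild-type peaks met it at 5 of the 7 V0 genes and dbp2Δ peaks at 7, against 19.9% and 20.6% of protein-coding genes. With 80% of the gene required the V0 counts were 5 and 5 (16.4% and 16.7% of protein-coding genes). With peaks of at least 2-fold enrichment they were also 5 and 5 (15.5% and 16.1%). VMA3, VMA11 and VMA16 encode the proteolipids of the rotating c ring. VMA3 (fold enrichment 5.16 and 5.26) and VMA16 (4.11 and 5.05) were 100% covered in both lists, by peaks whose summits lay outside them. VMA11 was covered over 36.6% in the wild type, by the ends of 2 peaks with summits outside any annotated gene. One of them also overlapped RVB2 and the other NSL1. In dbp2Δ it was covered over 100% (2.41) by a peak that also overlapped RVB2 and NSL1. VMA9, subunit e, shared its peaks with the snoRNA gene SNR43, where their summits lay (8.31 and 4.99).

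VMA6, subunit d, was covered over 100% and 68.5%, by peaks that also overlapped a neighbouring gene. Its 5′ edge lay 393 bp further inward in dbp2Δ, while that of VMA3 lay 36 bp inward and that of VMA9 35 bp outward. VPH1, the vacuolar form of subunit a, was 100% covered in both (2.58 and 1.93), by peaks that also overlapped neighbouring genes. The wild-type summit lay 80 bp before the first base of VPH1 and the dbp2Δ summit 44 bp before its last base. STV1, the Golgi and endosome form of subunit a, had 0% of its length under wild-type peaks. A dbp2Δ peak (1.72) that also overlapped a neighbouring gene covered 56% of STV1. The first base lay under a peak in 5 of 7 V0 genes in each list, against 6 and 2 of 8 V1 genes. When a peak within 50 bp was enough, the V1 counts were 6 and 5, and the V0 genes were not counted that way. The wild-type peak of VMA9 began 21 bp into the gene. The dbp2Δ peaks over VMA6 and STV1 began 327 and 1176 bp into them. The contrast between the sectors in dbp2Δ thus rests on the short distances at VMA1, VMA4 and VMA10. The difference between the sectors was not tested.

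Of the assembly factor genes, whose products build V0 in the endoplasmic reticulum, 2 of 5 had a peak in both lists. These were VMA21 (covered over 87.2% and 83.8%) and PKR1 (92.1% and 69.1%). None of the 3 genes of the RAVE complex (RAV1, RAV2 and SKP1), which reattaches V1 to V0, had a peak in either list. Of all protein-coding genes, 19.9% had a peak in the wild type, 20.6% in dbp2Δ and 16.9% in both. These shares also stand beside the counts that follow. The lists are short, and no departure from the shares was tested. Among genes of other proton pumps and of the vacuole, 2 of 6 genes of the mitochondrial F1 sector, the counterpart of V1 in ATP synthase, had a wild-type peak and 1 a dbp2Δ peak. The highest wild-type fold enrichments in that list were those of ATP2 (2.45, and 2.41 in dbp2Δ) and ATP1 (1.49), of which 100% and 9.46% were covered. ATP1 thus had no peak by the rule, and both wild-type values came from peaks with the summit outside the gene. The plasma membrane proton pump gene PMA1 had a peak in both lists (13 and 9.63) and PMA2 in neither. Vacuolar transporters that use the proton gradient had 3 of 12 and 2 of 12. The highest wild-type values among them were those of ZRC1 (6.54, 100% covered) and COT1 (2.93, 15.8% covered), both from peaks with the summit outside the gene. Vacuolar hydrolases had 1 of 9 in each list, and the highest wild-type values were those of CPS1 (1.90) and PHO8 (1.85), covered over 15.8% and 14.9% and so without a peak by the rule.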

How the data were processed

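Peak calling used MACS 2.1.2, per the file headers, in paired-end mode at a q-value cutoff of 0.05, with an effective genome size of 12000000, 1 duplicate kept per position and a local background over 1000 and 10000 bp. Trimming with Trimmomatic 0.36, alignment with Bowtie2 2.3.3.1 and build R64 are named in the submitters' processing notes. The labels call the molecule polyA RNA, whereas their protocol describes purified DNA. The deposited files give peak positions, a fold enrichment (ratio), a −log10 q-value and a pileup, the authors' coverage signal at the summit, which was not used here. Replicates were pooled before deposition, so none was compared.

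Peaks were joined to the RefSeq R64 gene table with Python 3.11.15 and pandas 2.3.3, all positions counted from 1. Gene spans are coding regions with any introns and without untranslated regions, and strand was read from the systematic name. The fold enrichment of a gene is that of its highest overlapping peak. Edge differences are along transcription, dbp2Δ minus wild type, positive outward. Coverage and edges were tested on simulated peaks. Of the planned lists, VMA12 was found as VPH2, and LAP4 is a synonym of APE1, so hydrolases number 9. The planned sequence features were not analysed here. All V1 genes are named, as are V0, assembly and RAVE genes with a peak, genes that share a peak with a V1 gene, and the 2 members of each comparison list with the highest wild-type fold enrichment, whatever their coverage. The coverage rule, the lists and the alternatives on peak sets were chosen with earlier results of these data known, and the comparisons of gene ends, edges, single-gene peaks and same-strand pairs were added after the values were seen.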

Additional observations from a re-analysis of the deposited data

How the results depend on the processing

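Of the 8 V1 genes, 6 had a wild-type peak, 6 a dbp2Δ peak, 5 a peak in both lists, 1 in the wild type only and 1 in dbp2Δ only. With peaks of at least 2-fold enrichment, 3 had one in both lists and 2 in the wild type only (12.6% and 2.88% of protein-coding genes), since VMA7 (wild type), VMA4 and VMA10 (dbp2Δ) were then uncovered. With 80% of the gene required, 2 had one in the wild type only (2.83% of protein-coding genes), and with any overlap 0 had one in dbp2Δ only (8.51%). Where the summit also had to lie inside the gene, the counts were 2 in the wild type, 2 in dbp2Δ, 2 in both, 0 in the wild type only and 0 in dbp2Δ only (10.9%, 8.48%, 5.51%, 5.38% and 2.97% of protein-coding genes). Accepting a peak within 50 bp of the first base, a choice made after seeing the data, changed the number of V1 genes with a covered first base in dbp2Δ from 2 to 5, and the share of protein-coding genes from 21.3% to 23.2%. Leaving out peaks shorter than the other list's shortest could not change the V1 counts. The shortest dbp2Δ peak was 290 bp and the shortest wild-type peak 260 bp, so no dbp2Δ peak was left out. The shortest wild-type peak over a V1 gene was 387 bp, so none of these was left out either.

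No replicate was left out for the same reason that no paired fit exists. No paired analysis was possible because the authors pooled the replicates before calling peaks. Fold enrichments at the summit do not give the level within VMA1, VMA2, VMA5, VMA7 or VMA13. The absence of a dbp2Δ peak at VMA7 does not show that Pol II was absent there at this depth.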
